A study of Mus musculus with 4 samples.

Results

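The genes described here encode the degradative machinery of the lysosome: proteases of the cathepsin group, glycosidases and a sulfatase, proteins that break down or move lipids, lysosomal membrane proteins, the transcription factors that drive the set, and subunits of the vacuolar proton pump. They were chosen as a list of 44 gene names, and each was represented by its brightest probe set, by the mean of the 4 arrays, among probe sets that name a single gene. Of the 44, 43 had such a probe set, out of 18193 genes on the array, and Cd63 was not analysed here. The expression arrays were hybridised with RNA from macrophages that had been grown from mouse bone marrow in M-CSF, the growth factor that drives monocyte precursors to become macrophages, for 5 days. The donors of the marrow were wild type or lacked Jmjd3 (Jmjd3-/-, called knockout below), a histone demethylase encoded by Kdm6b that removes the methyl mark laid down by Polycomb proteins. Cells of each genotype were left unstimulated or given 100 ng/ml lipopolysaccharide (LPS), a component of the outer membrane of Gram-negative bacteria, for 4 h, and each of the 4 groups was measured on 1 array. The sources used here do not give strain, age, the way the knockout allele was made or whether cells of several animals were pooled. All levels are log2 values after RMA, a method that corrects, normalises and summarises the probes of a probe set, and all differences are on that log2 scale. Levels are compared between arrays for a gene and never between genes, because probe sets differ in how brightly they bind.

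Lysosomes are acidic organelles in which macrophages digest what they engulf and what autophagy delivers. Their hydrolases work at low pH, which the vacuolar ATPase maintains by pumping protons across the membrane through a ring in its membrane sector V0, driven by ATP hydrolysis in its cytosolic sector V1. Many of these genes are switched on together by the transcription factors TFEB, TFE3 and MITF, which bind an E-box often found near their transcription start sites. Inherited loss of single enzymes causes storage diseases, such as Tay-Sachs and Krabbe disease, in which undegraded substrate fills the cells.

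The E-box that these factors read, the palindrome CACGTG, is shown first because it is a sequence feature that did not enter the choice of the members and that some of them hold. RefSeq start-site windows of build GRCm38.p6, each running from 250 bases before to 50 bases after a start, were held for 37 of the 44 members. Ctsb, Ctsh, Npc1, Asah1, Atp6v0d2, Atp6v1b2 and Atp6v1h had none. At least 1 window of 13 of those 37 members (35.1%) held CACGTG on either strand. So did 951 of the 7664 measured genes above the expression floor that had a window (12.4%), and 8.09% of all 27025 genes with one. The 37 include Cd63, not analysed here, and Ctsf, under the floor and 1 of the 13, so 12 tested members held it. The longer form TCACGTG, which contains the shorter, was in windows of 11 members (29.7%). It was in windows of 7.53% of the same measured genes and of 4.29% of all genes with a window. A match is a description of the letters in the window and not evidence of binding. The stretches upstream of the start of 6 members are given 5' to 3' on the strand of the gene, with the E-box in capitals, to show how the copies are spaced.
Ctsd, chr7:142387906-142388077, minus strand: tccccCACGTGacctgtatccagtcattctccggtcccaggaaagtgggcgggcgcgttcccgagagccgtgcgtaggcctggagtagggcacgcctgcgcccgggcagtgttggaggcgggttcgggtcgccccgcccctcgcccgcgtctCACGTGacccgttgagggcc
Lamp1, chr8:13159086-13159155, plus strand: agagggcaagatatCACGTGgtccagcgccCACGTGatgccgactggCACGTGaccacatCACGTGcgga
Mcoln1, chr8:3500434-3500493, plus strand: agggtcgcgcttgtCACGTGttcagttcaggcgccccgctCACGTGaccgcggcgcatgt
Gla, chrX:134601180-134601246, minus strand: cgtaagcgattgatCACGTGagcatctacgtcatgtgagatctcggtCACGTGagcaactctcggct
Glb1, chr9:114401016-114401049, plus strand: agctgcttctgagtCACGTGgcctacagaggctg
Naglu, chr11:101070007-101070040, plus strand: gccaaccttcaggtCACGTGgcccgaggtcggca
Lamp1, which encodes an abundant lysosomal membrane glycoprotein, has 4 copies starting 61, 45, 28 and 15 bases before its start. Mcoln1, the gene of a lysosomal calcium channel, has 2 copies, starting 71 and 45 bases before the start. Ctsd, the gene of the aspartic protease cathepsin D, has 2 copies, starting 245 and 98 bases before the start. The other members with a match were Ctsa, Ctsf, Ctsl, Lgmn, Cln3, Atp6v0d1 and Atp6v1a.

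Between 14483 and 15561 probe sets reached log2 6 on the 4 arrays. A gene entered the tests when it reached log2 6 on at least 1 array, which 9385 genes and 42 of the 43 measured members did. The member left out was Ctsf, at 5.09 and 4.42 in wild type and 5.33 and 4.75 in the knockout, without and with LPS. Tfeb passed the floor on the unstimulated knockout array alone. Kdm6b, the targeted gene, read 10.33 and 11.23 in wild-type and 9.82 and 10.83 in knockout cells on its brightest probe set. The name of this probe set ends in x_at, a kind treated here as less specific, so its signal may not come from Kdm6b alone. A dimmer one read 4.71 and 5.22 in wild type and 5.35 and 6.07 in the knockout, the other way between genotypes and under the floor on 3 arrays, and the sources used here do not say which part of the gene was deleted. Macrophage markers were present in both genotypes: 13 of 14 measured markers were at or above the floor on each wild-type array and 14 on each knockout array, and the M-CSF receptor gene Csf1r read between 12.16 and 13.12. Their levels were not all alike. In the knockout 3 of the 14 were higher (21.4%, against 6.39% of all genes) and 1 lower (7.14%, against 3.12%; limma, adjusted p below 0.05). Knockout minus wild-type differences ran from -1.06 to 4.42 without LPS and from -1.09 to 4.72 with it, with medians of 0.23 and 0.02. The knockout arrays also carried markers of other cells. Of 12 granulocyte markers 4 and 7 reached the floor on the wild-type arrays without and with LPS and all 12 on both knockout arrays, where their mean level was 10.77 and 10.61 against 6.03 and 6.74. Of 16 stromal markers 5 and 8 reached the floor in wild type and 13 and 14 in the knockout, with mean levels of 5.79 and 6.15 against 9.81 and 9.63. Markers of other blood cells were tested in part. Of 11, 10 and 10 measured markers of dendritic cells, of lymphoid cells, and of mast cells, basophils or eosinophils, 6, 4 and 6 were tested. In each list 3 were lower in the knockout and 1, 0 and 1 higher (limma, adjusted p below 0.05). Over all genes 3.12% were lower and 6.39% higher. Lymphoid markers at the floor numbered 3 on each wild-type array and 1 and 0 on the knockout arrays. A marker that entered through wild-type arrays alone is apt to read lower in the knockout, so these counts are no test of direction. Of 3 tested erythroid and megakaryocyte markers none was called.

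**Figure D1:**
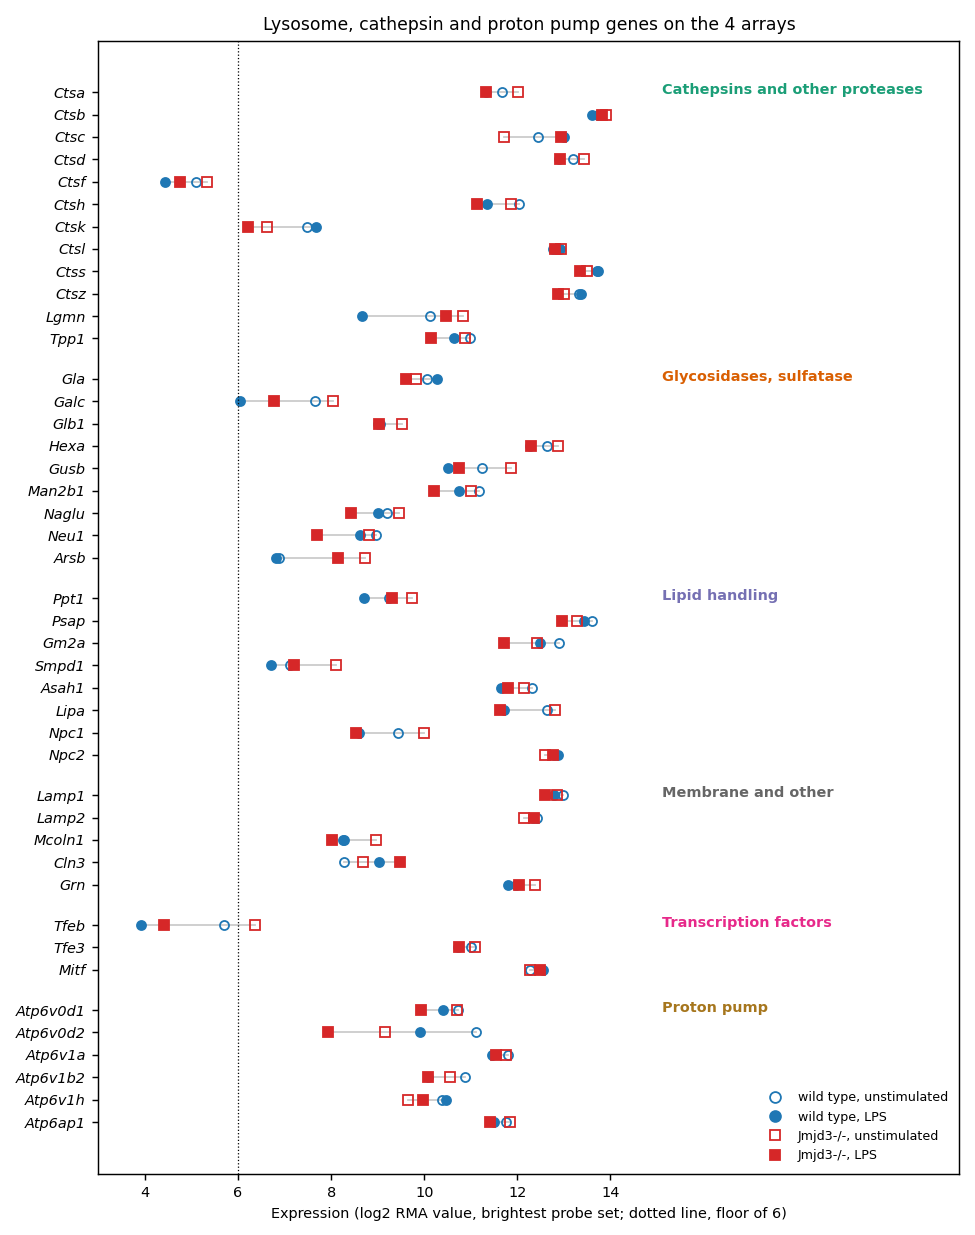
Levels of the 43 measured lysosome genes on the 4 arrays (horizontal axis, log2 RMA value of the brightest probe set), grouped by role. Circles are wild type, squares knockout, open symbols unstimulated and filled symbols LPS. Atp6v0d2 spans from 11.12 to 7.93, and Tfeb lies near or under the floor of log2 6 throughout.

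The first comparison asked how LPS changed the lysosome genes in both genotypes together. Lower levels prevailed: 11 of 42 members fell with LPS and 2 rose in an additive model of LPS and genotype (limma, Benjamini-Hochberg adjusted p below 0.05 over all 9385 genes). The 11 include Tfeb, which entered the test through 1 unstimulated array alone. Among members that reached the floor on all arrays the largest decreases were those of Galc (-1.44), Atp6v0d2 (-1.21), Npc1 (-1.15) and Lipa (-1.05), and the genes that rose were Ctsc (0.88) and Cln3 (0.78). As a share, 26.2% of members fell, against 18.8% of all genes, and 4.76% rose, against 11.2%. The median LPS effect was -0.43 over the 42 members and -0.22 over all genes tested, and 35 members (83.3%) had a negative value, against 63.9% of all genes.

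With 1 array per group the test has 1 residual degree of freedom, and its error is the difference between the responses of both genotypes, moderated across genes; nothing in the sources says that the samples came from separate cultures. When each array was centred on its median, which moves the median effect of all genes to -0.10 and that of the members to -0.31, 7 members fell and 2 rose, and of all called genes 1300 fell and 1185 rose in place of 1769 and 1054. Without the intensity trend in the variance 6 of 42 members fell and none rose, and of all 9385 genes 1440 fell and 834 rose. The share of members that fell was then not above that of all genes. Without a genotype term in the model Lipa was the single member called, and of all genes 84 fell and 183 rose.

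**Figure D2:**
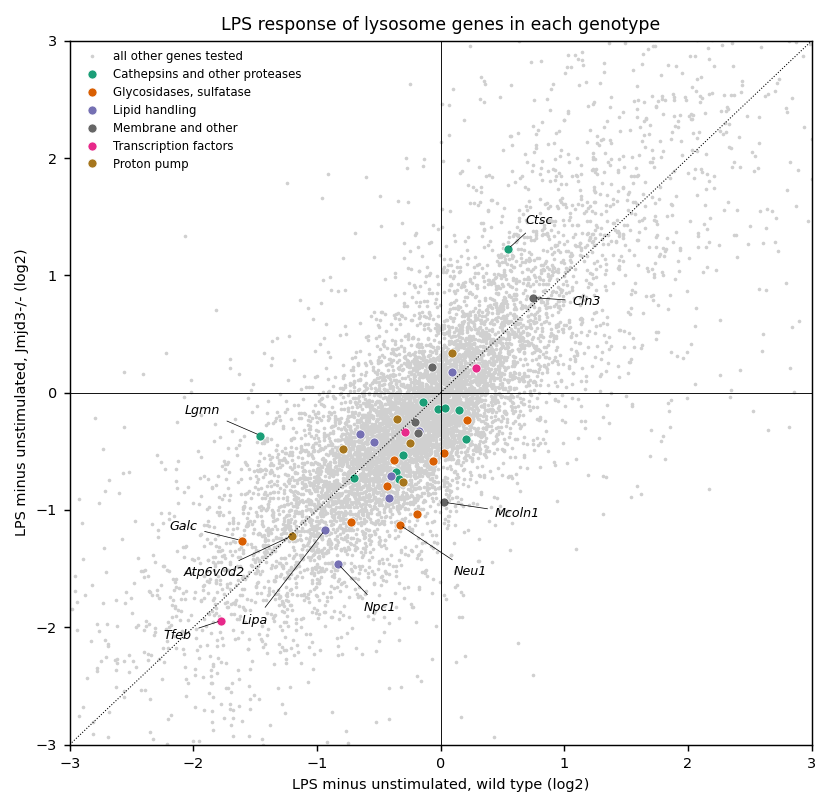
LPS minus unstimulated level (log2) in wild type (horizontal axis) and knockout (vertical axis) for the 42 lysosome genes, coloured by role, over all other genes tested in grey. The dotted line marks equal responses, and 344 of 9385 genes lie beyond the axes. Most lysosome genes lie below 0 on both axes, and Ctsc and Cln3 lie farthest to the upper right among them.

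Of the 3 transcription factor genes, Tfeb was called lower and the others did not pass. Tfeb, the master regulator of lysosome formation, read 5.69 and 3.92 in wild type and 6.35 and 4.41 in the knockout, without and with LPS. It entered the test only through the unstimulated knockout array, where it read highest, and the other 3 values are under the floor of log2 6. No fold is given, and the call is not used as evidence of a decrease. Tfe3, a related factor, read 11.01 and 10.72 in wild type and 11.10 and 10.76 in the knockout (effect -0.32 ± 0.15 SE, limma, adjusted p = 0.16). Mitf, the family member known for melanocytes and osteoclasts, read 12.28 and 12.56, and 12.28 and 12.48 (0.24 ± 0.10 SE, limma, adjusted p = 0.123). A dimmer probe set of Mitf read 7.14 and 7.77, and 6.17 and 7.55. Of the 12 tested members with an E-box in a window, 1 fell and 1 rose (Ctsd and Cln3), with a median LPS effect of -0.35. Of the 23 tested members whose windows lacked it 6 fell, Tfeb among them, and 1 rose, with a median of -0.34. Over all genes tested 18.8% fell and 11.2% rose, with a median of -0.22.

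Proteins that handle lipids held the largest share of decreases, with 4 of 8 genes (50%) lower and none higher, against 18.8% and 11.2% of all genes. Lipa, which encodes the acid lipase that frees cholesterol from lipoprotein-derived esters, read 12.65 and 11.71 in wild type and 12.81 and 11.64 in the knockout. Both LPS arrays lay about 1 below both unstimulated ones, and the effect was -1.05 ± 0.12 SE (2.08-fold lower; limma, adjusted p = 0.00778). It kept its call under all 10 alternatives run, and its other probe sets read lower with LPS by 0.82 to 1.26. Npc1, which exports the freed cholesterol from the lysosome, read 9.43 and 8.60, and 9.99 and 8.53, an effect of -1.15 ± 0.23 SE (limma, adjusted p = 0.0252). Its partner Npc2, which hands cholesterol to it, read 12.79 and 12.88, and 12.60 and 12.77, and did not pass (0.13 ± 0.09 SE, limma, adjusted p = 0.293). Asah1, the acid ceramidase gene, fell by 0.50 ± 0.13 SE, from 12.32 to 11.66 in wild type and from 12.15 to 11.80 in the knockout (limma, adjusted p = 0.0447), but passed in only 4 of 10 alternatives. Gm2a, the activator protein that presents GM2 ganglioside to its enzyme, fell by 0.56 ± 0.12 SE, from 12.89 to 12.49 and from 12.42 to 11.71 (limma, adjusted p = 0.0294; 6 of 10 alternatives). Psap, Ppt1 and Smpd1, the genes of the saposin precursor, a thioesterase and acid sphingomyelinase, had effects between -0.66 and -0.25 and did not pass.

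Of 9 glycosidase and sulfatase genes 3 fell (33.3%) and none rose, against 18.8% and 11.2% of all genes. Galc, the galactosylceramidase gene mutated in Krabbe disease, read 7.65 and 6.04 in wild type and 8.04 and 6.78 in the knockout, 2.70-fold lower (-1.44 ± 0.21 SE, limma, adjusted p = 0.0129). Gusb, which encodes beta-glucuronidase, read 11.25 and 10.52, and 11.85 and 10.76 (-0.91 ± 0.16 SE, limma, adjusted p = 0.0192). Hexa, the alpha subunit of hexosaminidase, mutated in Tay-Sachs disease, read 12.64 and 12.26, and 12.87 and 12.30 (-0.48 ± 0.10 SE, limma, adjusted p = 0.03). For each of these genes both LPS arrays were lower than both unstimulated arrays. The sialidase gene Neu1 read 8.96 and 8.63, and 8.81 and 7.69, and Naglu, whose enzyme degrades heparan sulfate, 9.20 in unstimulated wild-type cells, with a difference of -0.19 on LPS, and 9.46 and 8.43 in the knockout. Both differed 2-fold or more in the knockout alone and did not pass (limma, adjusted p = 0.0908 and 0.138). The alpha-mannosidase gene Man2b1 (-0.61) also did not pass (limma, adjusted p = 0.0526), nor did Gla, Glb1 and Arsb, with effects between -0.33 and -0.01.

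Cathepsins and related proteases changed in both directions, with 2 of 11 tested lower and 1 higher, 18.2% and 9.09%, close to the 18.8% and 11.2% of all genes. Ctsc encodes dipeptidyl peptidase 1, the protease that activates the granule serine proteases of leukocytes, and was the largest increase of the set. It read 12.45 and 12.99 in wild type and 11.72 and 12.95 in the knockout, so the LPS arrays of both genotypes lay close together (0.88 ± 0.18 SE, 1.84-fold; limma, adjusted p = 0.0262). Its dimmer probe sets showed larger differences, of 1.46 and 1.51 in wild type and 2.71 and 2.82 in the knockout. Ctsh, an aminopeptidase, read 12.04 and 11.34, and 11.86 and 11.14, nearly the same difference in both genotypes (-0.71 ± 0.12 SE, limma, adjusted p = 0.0178). Ctsd read 13.19 and 12.89, and 13.44 and 12.91 (-0.42 ± 0.09 SE, limma, adjusted p = 0.0325; 5 of 10 alternatives). The gene of legumain, Lgmn, a protease that matures other cathepsins, read 10.13 and 8.67 in wild type but 10.84 and 10.48 in the knockout, and did not pass (-0.91 ± 0.30 SE, limma, adjusted p = 0.0782). Ctsb, Ctsl, Ctss and Ctsz, the broadly acting cysteine cathepsins of macrophages, differed by no more than 0.15 with LPS in either genotype on their brightest probe sets and did not pass. Dimmer probe sets of Ctsb differed by -0.34 and -0.60, and by -0.54 and -0.92, in wild type and knockout, and that of Ctsl by 0.18 and -0.61. Ctsa and Tpp1, the genes of a carboxypeptidase that also protects lysosomal glycosidases and of a tripeptidyl peptidase, had effects of -0.52 and -0.54, and Ctsk one of -0.10, and none of them passed (limma, adjusted p = 0.0525, 0.0784 and 0.777).

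Of the 5 measured membrane and other proteins Cln3 rose (20%, against 11.2% of all genes) and none fell (against 18.8%). Cln3, mutated in juvenile Batten disease, read 8.28 and 9.02 in wild type and 8.67 and 9.48 in the knockout (0.78 ± 0.18 SE, 1.71-fold; limma, adjusted p = 0.0364). The structural proteins of the membrane moved little, Lamp1 from 12.99 to 12.79 and from 12.86 to 12.61, and Lamp2 from 12.41 to 12.34 and from 12.13 to 12.35. Grn, the progranulin gene, had an effect of -0.26 ± 0.11 SE. Mcoln1 read 8.26 and 8.28 in wild type and 8.96 and 8.03 in the knockout, so that its unstimulated knockout array stood above the other 3.

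In the proton pump, 1 of 6 genes fell (16.7%) and none rose, against 18.8% and 11.2% of all genes. The subunit genes Atp6v0d1 and Atp6v0d2 encode alternative forms of the d subunit, which joins the membrane ring to the central stalk; d1 is made in all cells and d2 in osteoclasts, kidney and some macrophages. Atp6v0d2 read 11.12 and 9.91 in wild type and 9.15 and 7.93 in the knockout, a difference of -1.21 and -1.22 in the genotypes (-1.21 ± 0.18 SE, 2.32-fold lower; limma, adjusted p = 0.013). Its other probe set read 10.89 and 9.81, and 8.33 and 7.35. Atp6v0d1 read 10.72 and 10.41, and 10.70 and 9.94, and did not pass (-0.53 ± 0.19 SE, limma, adjusted p = 0.0935). The V1 genes Atp6v1a, Atp6v1b2 and Atp6v1h, for catalytic, nucleotide-binding and regulatory subunits, and the accessory gene Atp6ap1 had effects between -0.64 and 0.21 and did not pass.

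Counted per genotype, without a test, 3 of 41 members were 2-fold or more lower with LPS in wild type (Lgmn, Galc and Atp6v0d2) and none was 2-fold higher. That is 7.32%, against 14.3% of 8627 genes lower and 9.86% higher. In the knockout 8 of 42 were 2-fold or more lower (Galc, Gusb, Naglu, Neu1, Lipa, Npc1, Tfeb and Atp6v0d2, with Tfeb under the floor with LPS) and Ctsc was higher. Tfeb also fell in wild type, from 5.69 to 3.92, but was not counted there because both values are under the floor. With no floor 4 members were lower in wild type and 8 in the knockout. The shares that follow are those with the floor. That is 19.0% lower against 15.5% of 9122 genes, and 2.38% higher against 11.0%. Over all 43 measured members the median difference was -0.30 in wild type and -0.48 in the knockout.

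The second comparison asked how the genotypes differed. Of 42 members 3 fell in the knockout, Atp6v0d2 (-1.97), Gm2a (-0.62) and Psap (-0.40), and Arsb (1.61) rose (limma additive model, adjusted p below 0.05). That is 7.14% lower, against 3.12% of all genes, and 2.38% higher, against 6.39%. The median genotype effect was -0.01 over the members and 0.05 over all genes, and 20 members had a positive and 22 a negative value. In these RNA samples of whole cultures, fewer cells of a type and less RNA per cell cannot be told apart. The granulocyte and stromal markers given above moved with the same contrast, with 9 of 12 and 12 of 15 tested higher and 1 of each lower. Dendritic, lymphoid and mast cell markers were mostly lower among those called, with the limit of the floor given above. The part of these cell types in the genotype differences of the members was not tested.

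**Figure D3:**
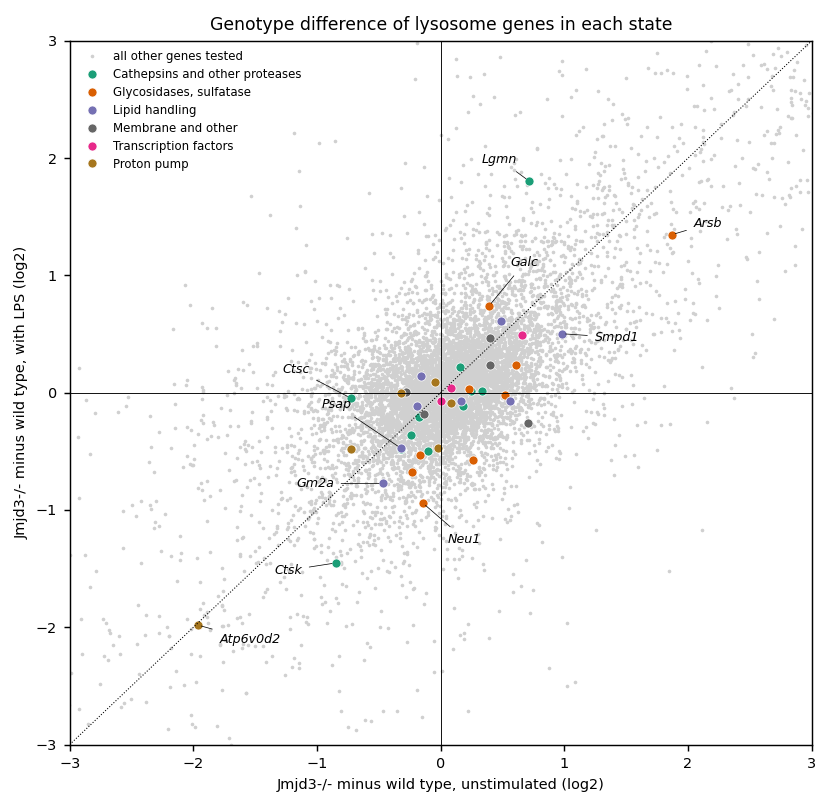
Knockout minus wild-type level (log2) without LPS (horizontal axis) and with LPS (vertical axis) for the 42 lysosome genes, coloured by role, over all other genes tested in grey. The dotted line marks equal differences, and 376 of 9385 genes lie beyond the axes. Atp6v0d2 lies on the line at -1.97 and -1.98, Arsb at 1.87 and 1.35, and most members lie near 0.

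Atp6v0d2 had the largest genotype difference of the set. It was 3.90-fold lower in the knockout without and 3.95-fold lower with LPS (-1.97 ± 0.18 SE, limma, adjusted p = 0.00554; 9 of 10 alternatives), and its other probe set differed by -2.56 and -2.46. The knockout array without LPS (9.15) lay below the wild-type array with LPS (9.91), with 1 array in each group. Atp6v0d1 differed by -0.02 and -0.47 and did not pass (limma, adjusted p = 0.493), and no other pump gene among the members did. Atp6v0d2 is also known for its part in the fusion of osteoclasts and macrophages. Of 13 tested genes of an osteoclast list, Dcstamp, whose protein is needed for that fusion, fell by 3.11 ± 0.19 SE, from 10.99 to 7.78 without and from 10.87 to 7.85 with LPS (limma, adjusted p = 0.0021). Src was also called lower and the integrin gene Itgb3 higher, each with values under the floor, and the other 10 tested genes of the list did not pass. Ctsk, the collagen-degrading cathepsin of osteoclasts, read 7.47 and 7.67 in wild type and 6.62 and 6.22 in the knockout, a difference of -1.15 ± 0.24 SE that missed the threshold (limma, adjusted p = 0.0541).

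Arsb, the gene of arylsulfatase B, which removes sulfate from dermatan and chondroitin chains, read 6.87 and 6.80 in wild type and 8.74 and 8.15 in the knockout. Both knockout arrays stood above both wild-type ones (1.61 ± 0.22 SE, 3.05-fold; limma, adjusted p = 0.0172; 8 of 9 alternatives). Its dimmer probe sets were under the floor on all arrays, and with averaged probe sets it did not reach the floor and was not tested. Psap read 13.62 and 13.44 against 13.29 and 12.97 (-0.40 ± 0.08 SE, limma, adjusted p = 0.0478), and its other probe set differed by -0.57 and -0.92. Gm2a read 12.89 and 12.49 against 12.42 and 11.71 (-0.62 ± 0.12 SE, limma, adjusted p = 0.0436). Both Psap and Gm2a passed in only 4 of 10 alternatives. Lgmn was higher in the knockout by 0.71 without and 1.80 with LPS and did not pass (1.26 ± 0.30 SE, limma, adjusted p = 0.0748). Ctss and Ctsz, both bright on all arrays, differed by -0.24 and -0.36, and by -0.32 and -0.48, and did not pass (limma, adjusted p = 0.0721 and 0.055).

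The genotypes were also counted per state on the brightest probe sets, without a test. In unstimulated cells Atp6v0d2 was the single member lower in the knockout by 2-fold or more and Arsb the single one higher. That is 2.38% each, against 5.74% of 9045 genes lower and 9.54% higher. With LPS, Ctsk and Atp6v0d2 were lower and Lgmn and Arsb higher, 4.88% each of 41, against 5.65% of 8630 genes lower and 9.76% higher. Responses to LPS differed between the genotypes by 2-fold or more for Lgmn alone (1.09), 2.38% of members, against 5.19% of all genes higher and 4.73% lower in that difference. The most negative difference of responses was that of Mcoln1 (-0.96). With 1 array per group these differences of responses have no test. The comparisons of 2 arrays share arrays with each other, so their counts are not independent.

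Several members are read by more than 1 probe set, and these did not always go the same way. In 23 members at least 2 probe sets reached the floor, giving 37 probe sets beside the brightest. For LPS 34 of the 37 had the sign of the brightest, with a median absolute difference of 0.14 between the effects, and for genotype 28 of 37, with 0.29. For LPS 3 probe sets, of Ctsc and Man2b1, differed by 1 or more from the brightest, and for genotype 3, of Galc, Gm2a and Atp6v1b2. The second Galc probe set read 8.96 and 6.10 in wild type and 4.94 and 4.42 in the knockout. It was thus far lower in the knockout, by 4.02 without LPS, where the brightest was higher by 0.39, so the probe sets of Galc disagree on the direction of the genotype difference, though not on that of LPS. The second Gm2a probe set differed between genotypes by -2.30 and -1.58, more than the brightest but in the same direction. The second Man2b1 probe set differed with LPS by -2.06 and -2.86. In Ctsb 2 dimmer probe sets read higher in the knockout by 0.83 to 1.26, while the brightest differed by 0.15 and 0.22. The second Ppt1 probe set read higher in the knockout by 1.16 and 1.24, the brightest by 0.49 and 0.61, and dimmer ones differed by -0.13 to 0.88. Dimmer Lamp2 probe sets read lower in the knockout by 0.63 to 0.80 without and 0.06 to 0.48 with LPS, where the brightest differed by -0.28 and 0.01.

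**Figure D4:**
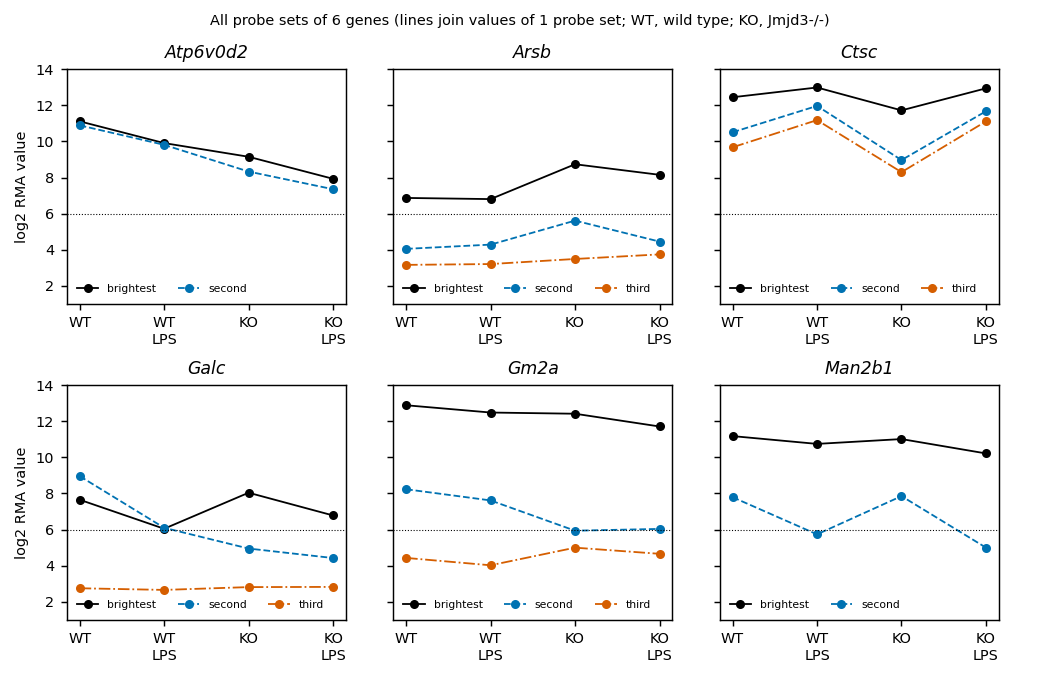
Levels (vertical axis, log2 RMA value) of every probe set of 6 lysosome genes on the 4 arrays (horizontal axis). Each line is 1 probe set, and the dotted line is the floor of log2 6. Both probe sets of Atp6v0d2 descend in parallel, whereas those of Galc part between genotypes, at 8.04 and 4.94 in unstimulated knockout cells.

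Further genes of the pathway came from 8 lists that leave out the members and overlap in a few genes. Of 211 tested genes on them 52 fell and 20 rose with LPS (24.6% and 9.48%, against 18.8% and 11.2% of all genes). With genotype 12 fell and 4 rose (5.69% and 1.9%, against 3.12% and 6.39% of all genes). Lysosomal membrane proteins and transporters held the highest share of decreases, 17 of 39, with 4 higher. They include the amino acid exporter gene Slc36a1 (-2.48), and Slc46a3, the lysosomal ion channel gene Tpcn1 and the cystine exporter gene Ctns. No size is given for these last genes, nor for others named below without a value, because at least 1 array read under the floor. The genes that rose were Slc11a2 (1.93), an iron transporter, Mcoln2 (1.74), a relative of Mcoln1, the peptide transporter gene Slc15a3 (1.46) and the chloride exchanger gene Clcn7 (1.39). Of 40 further hydrolases 10 fell, among them Pla2g15 (-1.96), Manba (-1.77) and Sgsh, and 1 rose, Smpdl3b. Of 15 further genes of the proton pump and its assembly 4 fell, Dmxl2 (-1.86), Atp6v0a1 (-1.25), Tmem199 (-0.89) and Atp6v1c1 (-0.66), and none rose. Of 24 genes of nutrient sensing at the lysosome 5 fell, among them Flcn (-1.61) and Rragd, both of which act on the localisation of TFEB, and none rose. Among 45 sorting and fusion genes 7 fell, among them Ap1b1 (-1.72) and Rab7b (-1.70), and 4 rose, among them Rab9 (0.92) and Rab38.

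Between genotypes, Ctse, the gene of an aspartic protease of the endosome, was higher, at 8.78 without and 7.87 with LPS in the knockout, while both wild-type values, 3.43 and 2.95, are under the floor (limma, adjusted p = 0.0021). Hgsnat (1.05) and Sulf2 (0.79) also rose. Naaa (-2.25), Plbd1 (-2.18), Prcp (-0.95) and Ifi30 (-0.76), the thiol reductase gene used in antigen processing, fell, as did Mcoln2 (-1.56), Slc48a1 (-1.27) and Clcn5 (-1.06).

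**Figure D5:**
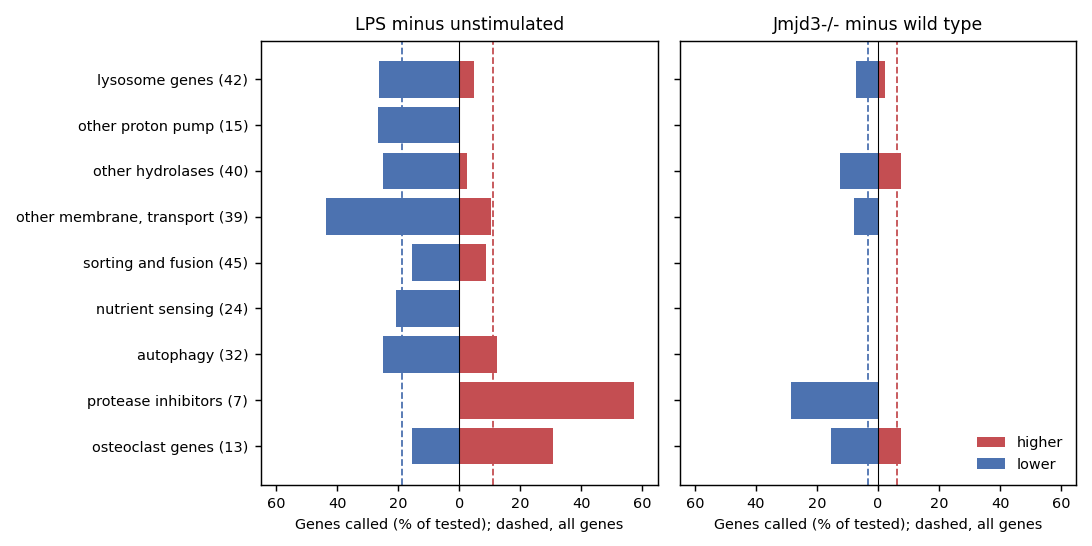
Share of tested genes called lower (bars to the left) and higher (bars to the right) with LPS (left panel) and in the knockout (right panel), for the lysosome genes and 8 further lists, with the number tested in brackets. Dashed lines are the shares over all genes, 18.8% lower and 11.2% higher for LPS, and 3.12% lower and 6.39% higher for genotype.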

How the data were processed

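Each of the 4 groups had 1 array. The deposited log2 values came from RMA, per the submitters' processing notes, and the sources used here do not give its version or which arrays were normalised together. Probe sets naming several genes (932) or none were left out, as were Affymetrix controls, leaving 34945, of which 34741 matched RefSeq (GRCm38.p6). A gene was its brightest probe set.

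Both shared effects were fitted on all 4 arrays with limma 3.58.1 in R 4.3.3, as an additive model with intensity trend, and adjusted over 9385 genes at or above log2 6. Differences of 2 arrays have no test. Members and lists were chosen with earlier results of these data known. All members could be named, and values are printed for those called or 2-fold different and for some others, such as Npc2 and Lamp1. On the further lists up to 4 called genes per list, direction and effect are named. List genes named beyond that (Tfec, Serpinb1a, Cst3 and Cstb) were chosen after their values were seen. The fit was tested on simulated data with few genes changed, where it missed most 2-fold changes. Many more genes were called on these arrays, so the share missed here may differ. A gene that did not pass may still have changed.

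Alternatives were a floor of log2 8 or none, averaged or specific probe sets, quantile normalisation, centring, 64 added to linear values, eBayes without trend or robust, and no second factor. Python 3.11.15 was used. The number of arrays limits the precision.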

Additional observations from a re-analysis of the deposited data

Results flagged for a closer look

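In 3 members the LPS responses of the genotypes had opposite signs and lay at least 0.5 apart. The share of all genes that did so is not given, so the count says nothing particular of the members. The response of Ctsk was 0.20 in wild-type and -0.40 in knockout cells, -0.60 apart. Glb1 had responses of 0.02 and -0.51, -0.54 apart, and Mcoln1 of 0.03 and -0.93, -0.96 apart. On the further lists, with responses at least 1 apart, Tfec, the fourth relative of Tfeb, had responses of -0.79 and 1.15, 1.94 apart. Naaa had responses of -0.49 and 0.69, 1.17 apart. Serpinb1a, a granulocyte elastase inhibitor gene, had responses of 4.26 and -0.01, -4.27 apart, with the unstimulated wild-type value (4.43) under the floor of log2 6. The wild-type responses of Glb1 and Mcoln1 and the knockout response of Serpinb1a lay near 0, so their sign carries little and no reversal is shown. With 1 array per group these differences were not tested.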

How the results depend on the processing

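No paired analysis was possible because each group had 1 array, and for the same reason no array could be left out. The number of members called for LPS, 13 in the report, was 6 without the intensity trend and 1 without the genotype term, and between 9 and 17 otherwise. For genotype, 4 in the report, it was 2 with a floor of log2 8, with no floor, with specific probe sets and without the trend, 1 with averaged probe sets, 8 after quantile normalisation, 7 after centring, and 0 without the LPS term, where 4 members had an unadjusted p below 0.05. Counts of members 2-fold or more different, 3 for LPS in wild type, became 5 with averaged probe sets. With 64 added to linear values they became 5 in place of 9 for LPS in the knockout, 2 in place of 4 for genotype with LPS, and 0 in place of 1 between responses, where averaged probe sets gave 2. After quantile normalisation the gene counted was Mcoln1 (-1.02) in place of Lgmn (0.98). Of the effects of members called under any of these settings none changed direction. With another floor, another form of eBayes or no second factor the coefficient of a gene is the same by design, so its direction could not change there. Tfeb with a floor of log2 8 and Arsb with averaged probe sets were not tested and are left out of the following counts. Counted per gene and setting, 31 LPS calls of 12 genes were lost and 9 of 4 genes gained. For genotype 14 calls of 4 genes were lost and 9 of 4 genes gained. The cause was not tested.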

Other observations

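Of 7 tested genes for inhibitors of cathepsins and serine proteases 4 rose with LPS (57.1%, against 11.2% of all genes) and none fell. They were Cst7, whose product cystatin F restrains cathepsin C, Serpinb6b, Serpinb9 (2.92) and Slpi (1.34) (limma, adjusted p between 0.00267 and 0.00838). No size is given for Cst7 and Serpinb6b, which lay under the floor on 1 and 2 arrays. Cst7 read 6.76 and 10.36 in wild type and 5.94 and 10.23 in the knockout. The abundant inhibitors Cst3 and Cstb differed by -0.19 and -0.07 and did not pass. Slpi (-2.60) and Serpinb9 (-2.03) fell in the knockout.

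Of 32 tested autophagy genes, whose cargo ends in the lysosome, 8 fell and 4 rose with LPS (25% and 12.5%, against 18.8% and 11.2% of all genes). Atg7 (-1.78), Ulk2 (-1.50), Nbr1 (-1.37) and Gabarapl1 (-1.27) had the largest decreases. Atg16l1 (0.85), Ambra1 (0.69) and the receptor genes Tax1bp1 (0.68) and Sqstm1 (0.62) rose.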
